A study of Mus musculus with 16 samples.

Results

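The small heat shock protein genes and their Hsp70 partners were examined in quadriceps muscle of *Mtm1* KO and WT mice, with and without tamoxifen. The set held 10 of the 41388 genes of the count table, each found by its exact symbol. These were *Cryab*, *Hspb1*, *Hspb2*, *Hspb3*, *Hspb6*, *Hspb7* and *Hspb8*, which encode small heat shock proteins, and *Bag3*, *Dnajb6* and *Hspa8*, which encode chaperones and a co-chaperone that work with them. *Mtm1* encodes the lipid phosphatase myotubularin, and the KO mice were made by removing its exon 4. All mice were on a C57BL/6 background and 36 days old by the sample labels. WT + TAM and *Mtm1* KO + TAM mice received 40 mg/kg tamoxifen-citrate, an estrogen receptor ligand, mixed into a sweetened rodent diet from day 21, and the other WT and *Mtm1* KO mice were not treated. The study compared these groups to ask whether tamoxifen alters transcription in the diseased muscle. The comparisons used the 14 libraries of the study, 1 per mouse: 3 WT, 3 *Mtm1* KO, 4 WT + TAM and 4 *Mtm1* KO + TAM.

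Small heat shock proteins bind proteins that begin to unfold and hold them in a soluble state, without using ATP, until Hsp70 refolds them or passes them on for degradation. In striated muscle they sit at the Z disc and along the intermediate filaments, where desmin, filamin C and titin are strained with each contraction. Bag3 joins Hspb8 to Hsp70 and so directs damaged filamin to autophagy, with the ubiquitin ligase encoded by *Stub1* and the adaptor encoded by *Synpo2*. Dnajb6, an Hsp40 protein, delivers clients to Hsp70, and *Hspa8* encodes the Hsp70 that cells make at all times. Mutations in *CRYAB*, *BAG3*, *HSPB8* and *DNAJB6* cause inherited myopathies in people. Many genes of the family are switched on by heat shock factors, which bind inverted repeats of the letters GAA and TTC.

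The libraries held 25116179 to 29847222 counts each. *Mtm1* had 341 to 369 counts in WT, 282 to 459 in WT + TAM, 63 to 76 in *Mtm1* KO and 53 to 97 in *Mtm1* KO + TAM. The comparisons of the study did not use WT replicate 1, as labelled, nor KO replicate 12. The first of these had 74 counts of *Mtm1*, which lies within the range of the KO libraries and against its label, and the second had 85. The comparisons of untreated mice are given without them, and with them where a call changes. The library labelled WT replicate 1 also reached the levels of the KO libraries for several genes of the set, with a normalised read count (CPM, counts scaled to a common library total with TMM factors) of 1462 for *Cryab*, 349 for *Hspb1*, 234 for *Bag3* and 1436 for *Hspb6*. It lay between the genotypes for *Hspb7*, with 597, and in the WT range for *Hspb8*, with 471. Its summed level of 6 slow fiber markers was 2701 CPM, the highest of the 16 libraries, while that of 6 markers of immature fibers was 51.6, within the range of the WT + TAM libraries.

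The gene positions, from GENCODE vM21 on GRCm38, show a pair of neighbours. *Cryab* (ENSMUSG00000032060) lies on the plus strand of chromosome 9 from 50751325 to 50756636, and *Hspb2* (ENSMUSG00000038086) lies head to head with it on the minus strand from 50751078 to 50752354. Their exons overlap by 252 bases, which are 17.0% of the exon bases of *Cryab* and 30.2% of those of *Hspb2*, and reads there cannot be told apart without strand. The strand setting of the counts is not given in the sources used here. The deposited counts and RPKM imply a length of 1185 bases for *Cryab*, against 1479 exon bases in GENCODE vM21. The counts thus rest on another gene model of *Cryab*, whose overlap with *Hspb2* is not known. *Hspb1* (ENSMUSG00000004951, chromosome 5, 135887919 to 135889563, plus strand) shares 50.1% of its 50-base exon stretches with other genes, nearly all of them with the pseudogene *Hsp25-ps1*, and its counts are uncertain to that extent. *Hspa8* (ENSMUSG00000015656, chromosome 9, 40800984 to 40810087, plus strand) shares 39.4%, most with *Gm15459*, and *Dnajb6* (ENSMUSG00000029131, chromosome 5, 29735688 to 29818134, plus strand) shares 21.0%. *Hspb6* (ENSMUSG00000036854, chromosome 7, 30552178 to 30555443, plus strand) shares 4.41%, and *Hspb7* (ENSMUSG00000006221, chromosome 4, 141420779 to 141425311, plus strand) shares 0.703%. *Bag3* (ENSMUSG00000030847, chromosome 7, 128523616 to 128546981, plus strand), *Hspb8* (ENSMUSG00000041548, chromosome 5, 116408491 to 116422864, minus strand) and *Hspb3* (ENSMUSG00000051456, chromosome 13, 113662896 to 113663676, minus strand) share none. Exons of overlapping genes cover 8.79% of the exon bases of *Hspb6*, 6.09% of those of *Hspa8* (3 snoRNA genes) and 4.11% of those of *Dnajb6*.

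The start regions are shown because members of the set rose together in the KO muscle and the family is known for its heat shock elements. RefSeq windows of 300 bases (GRCm38.p6), with 250 before the start and 50 after it, were at hand for 7 of the 10 genes. The core GAANNTTC, which reads the same on both strands, was present in the windows of 6 of these 7 genes. Among all 27025 genes with a window it was present in 9.04%, and among all 32851 windows in 7.86%. Of the 6 genes with this core, *Hspb3*, *Hspb6* and *Dnajb6* were called in neither genotype comparison by the quasi-likelihood test. The inverse core TTCNNGAA, also the same on both strands, was found in *Dnajb6* only and in 8.52% of all windows. Each line below gives 30 bases around a site from 5′ to 3′ on the strand of the gene, with the core in capitals, and the *Dnajb6* site joins both cores. They lie at chr5:135887791-135887820 and chr5:135887811-135887840 for *Hspb1*, chr5:116422844-116422873 for *Hspb8*, chr7:128523603-128523632 for *Bag3*, chr7:30553170-30553199 for *Hspb6*, chr13:113663882-113663911 for *Hspb3* and chr5:29735841-29735870 for *Dnajb6*.
Hspb1, core 117 bases before the start: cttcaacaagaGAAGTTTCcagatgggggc
Hspb1, core 97 bases before the start: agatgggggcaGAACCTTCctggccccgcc
Hspb8, core from base 3 of the transcript: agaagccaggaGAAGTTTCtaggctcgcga
Bag3, core from base 43 of the transcript: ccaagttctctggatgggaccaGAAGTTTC
Hspb6, core 120 bases before the second start: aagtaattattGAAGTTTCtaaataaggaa
Hspb3, core 224 bases before the start: ctccccgaatgGAATTTTCaggcagaggga
Dnajb6, core 46 bases before the first start: ctcagctccgaGAATCTTCCGGAAcgctag
The same 8 letters, GAAGTTTC, filled the core in *Hspb1*, *Hspb8*, *Bag3* and *Hspb6*. The window of *Hspb7*, the gene with the largest fold change of the set, held neither core. Its 250 bases before the start, chr4:141420529-141420778 on the plus strand, are given for comparison and carry no capitals.
Hspb7: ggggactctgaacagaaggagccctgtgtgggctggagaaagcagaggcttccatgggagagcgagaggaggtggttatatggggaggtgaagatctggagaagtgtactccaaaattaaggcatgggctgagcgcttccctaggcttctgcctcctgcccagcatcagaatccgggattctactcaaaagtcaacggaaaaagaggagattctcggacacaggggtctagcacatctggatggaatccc
The consensus palindrome of the estrogen response element was in none of the member windows and in 0.07% of all windows, and the AP-1 site TGANTCA was in that of *Bag3* and in 7.81% of all windows. Also searched were CANNTG (4 of the 7 genes, 75.0% of all genes), TATAAA (2, 15.7%), the MEF2 site (1, 3.70%) and the CArG box (0, 1.81%). A match of letters says nothing of whether a factor binds there, and neither does the absence of one.

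Levels were first set against each other per length, as RPKM (reads scaled to exon length and library size, a value the authors deposited). In WT muscle *Cryab* was the most abundant of the 10, at 414 ± 36.4 RPKM (SD, n = 3), followed by *Hspb6* at 317 ± 49.1 RPKM, *Hspa8* at 259 ± 16.2 RPKM and *Hspb8* at 226 ± 49.0 RPKM. *Hspb1* had 129 ± 13.6 RPKM, *Hspb2* 94.0 ± 9.78, *Hspb7* 52.9 ± 34.0, *Bag3* 44.0 ± 6.49, *Hspb3* 35.2 ± 6.09 and *Dnajb6* 10.6 ± 0.170 RPKM. The ranges of *Hspb6*, *Hspa8* and *Hspb8* overlapped from each to the next, as did those of *Hspb2*, *Hspb7*, *Bag3* and *Hspb3*. The ranges alone thus do not set the order of these neighbours, and differences between genes within a library were not tested. In *Mtm1* KO muscle *Cryab* still came first, at 1528 ± 217 RPKM (SD, n = 3), and *Hspb6* second at 667 ± 63.2. *Hspb7* stood at 418 ± 69.4 RPKM, in the fourth place in *Mtm1* KO and the seventh in WT, beside *Hspb1* at 386 ± 42.2, with overlapping ranges. *Hspa8* stood at 314 ± 44.6 RPKM in *Mtm1* KO, below *Hspb1*, with ranges that did not overlap.

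The first comparison asked how the loss of *Mtm1* changes the set in untreated mice. *Hspb7*, *Cryab*, *Hspb1* and *Bag3* rose in *Mtm1* KO against WT, by 6.46-, 2.96-, 2.41- and 1.65-fold. None of the 10 genes fell. In bulk muscle such as this, fewer cells of a type and less RNA per cell cannot be told apart. These 4 of 10 were called at an adjusted p of at most 0.01, where 3.60% of all 14740 genes tested were called in either direction and 1.91% as higher. *Hspb6* and *Hspb8* were also higher in every KO library than in every WT library. They missed the threshold in edgeR's quasi-likelihood test and passed it in DESeq2, in edgeR's exact test and in limma. DESeq2 called 1678 of all genes. In all, 6 of 10 genes did not overlap between the groups, against 17.4% of all genes that lay wholly higher. With all 16 libraries, 0 of the 10 were called by the quasi-likelihood test, which then called 211 of all genes. The lowest adjusted p in that test was 0.0183 for *Hspb8*, and only *Hspb7* and *Hspb8* did not overlap. The members of the set had a median log2 fold change of 0.74, against 0.02 over all genes tested. The members were chosen with earlier results of these data known. Contrasts with all genes, here and below, thus describe the set and do not test it. In mice on tamoxifen, which are other animals, *Hspb7*, *Hspb8*, *Hspb1* and *Cryab* rose in *Mtm1* KO + TAM against WT + TAM, by 5.42-, 2.65-, 2.67- and 2.64-fold. Again 4 of 10 were called, against 6.72% of 14563 genes in either direction and 3.42% as higher. The same 6 genes lay wholly higher, against 10.9% of all genes, and the median of the members was 0.76, against -0.01 over all genes. Across all 7 mice without *Mtm1* and all 7 with it, *Cryab*, *Hspb1*, *Hspb6*, *Hspb7*, *Hspb8* and *Bag3* were higher in every mouse of the first kind, which was true of 5.03% of 15556 genes.

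**Figure D1:**
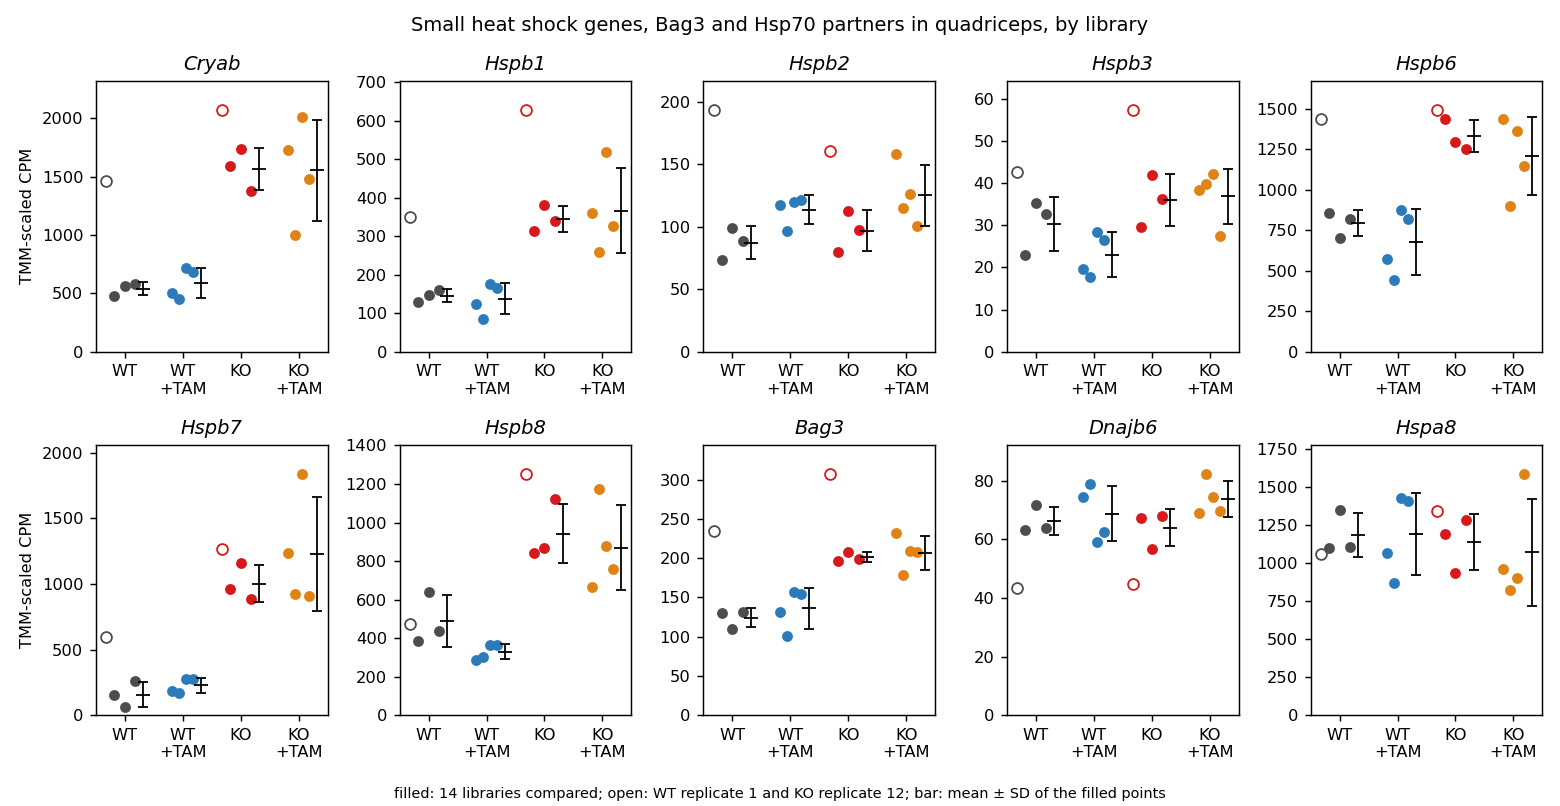
Normalised level of each of the 10 genes in every library, in TMM-scaled CPM on linear axes from 0, by group. Filled points are the 14 libraries compared, black bars their mean ± SD (n = 3 or 4), and open points WT replicate 1, as labelled, and KO replicate 12. In *Cryab*, *Hspb1*, *Hspb6*, *Hspb7*, *Hspb8* and *Bag3* all filled KO and KO + TAM points lie above all filled WT and WT + TAM points.

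*Hspb7* encodes a small heat shock protein of heart and skeletal muscle that binds filamin C. It had 153, 61.5 and 259 CPM in the 3 WT libraries and 962, 1163 and 884 in the 3 *Mtm1* KO libraries. It had 183, 171, 273 and 280 CPM in WT + TAM and 1237, 926, 1840 and 909 in *Mtm1* KO + TAM. Every KO library stood far above the highest WT library, and WT replicate 3 was the lowest of all. The log2 fold change was 2.69 (standard error 0.43, adjusted p = 0.00606) in *Mtm1* KO against WT and 2.44 (standard error 0.26, adjusted p = 2.31e-04) in *Mtm1* KO + TAM against WT + TAM. The first call was lost without WT replicate 2 or without any 1 of the KO replicates 9, 10 and 11, with adjusted p values up to 0.0220. The value was 2.31 without WT replicate 3 and 3.25 without WT replicate 4. Adding back WT replicate 1 as labelled (597 CPM) and KO replicate 12 (1266 CPM) gave 2.01 (adjusted p = 0.0674).

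*Cryab* encodes αB-crystallin, a chaperone of desmin and other filaments. It had 473, 564 and 578 CPM in WT and 1591, 1736 and 1375 in *Mtm1* KO. In treated mice it had 505, 455, 718 and 685 CPM in WT + TAM and 1734, 998, 2013 and 1477 in *Mtm1* KO + TAM. The groups did not overlap by genotype, and the lowest treated KO mouse, replicate 14, was above the highest WT + TAM mouse. Its log2 fold change was 1.57 (standard error 0.16, adjusted p = 8.80e-04) without tamoxifen and 1.40 (standard error 0.22, adjusted p = 0.00214) with it. The calls held without any 1 library, with adjusted p values of at most 0.00531 and 0.00717. With all 16 libraries, WT replicate 1 as labelled among them, the untreated value was 1.16 (adjusted p = 0.0894).

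*Hspb2*, the neighbour of *Cryab* and known to bind the myotonic dystrophy kinase, behaved otherwise. It had 72.9, 99.2 and 88.7 CPM in WT and 79.7, 112 and 97.6 in *Mtm1* KO, and these overlapped. It had 117, 96.7, 119 and 121 CPM in WT + TAM and 158, 115, 126 and 101 in *Mtm1* KO + TAM, which overlapped as well. The log2 fold change was 0.18 (95% interval -0.20 to 0.55) and 0.14 (-0.17 to 0.46) with tamoxifen, so a rise as large as that of *Cryab* lies outside both intervals. The ratio of *Cryab* to *Hspb2* in RPKM was 4.60, 4.03 and 4.62 in WT and 3.06, 3.34, 4.26 and 4.01 in WT + TAM. It was 14.2, 10.9 and 9.98 in *Mtm1* KO and 7.79, 6.16, 11.3 and 10.4 in *Mtm1* KO + TAM. All 7 KO ratios exceeded all 7 WT ratios, by a mean of 1.31 on the log2 scale or 2.48-fold (exact permutation test, two-sided, p = 5.83e-04, the least that 7 mice against 7 allow). Within treated mice the ratio was 2.38-fold higher (exact permutation test, p = 0.0286) and within untreated mice 2.62-fold higher (exact permutation test, p = 0.1, the least that 3 against 3 allow). *Cryab* alone was already higher in every KO mouse, so these p values are not support apart from that rise. Reads from the 252 shared bases may count for either gene, so the ratio of the unshared parts was not measured. *Hspb3*, whose product forms a complex with that of *Hspb2*, had 23.1, 35.3 and 32.6 CPM in WT and 29.6, 41.9 and 36.2 in *Mtm1* KO. It had 19.5, 17.7, 28.5 and 26.6 CPM in WT + TAM and 38.3, 39.8, 42.2 and 27.4 in *Mtm1* KO + TAM, where only replicate 16 reached into the WT + TAM range. Its log2 fold change was 0.27 (standard error 0.19, adjusted p = 0.375) without tamoxifen and 0.68 (standard error 0.18, adjusted p = 0.0255) with it, and neither passed in the quasi-likelihood test. DESeq2 called the second (adjusted p = 0.00421), as did edgeR's exact test and limma.

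**Figure D2:**
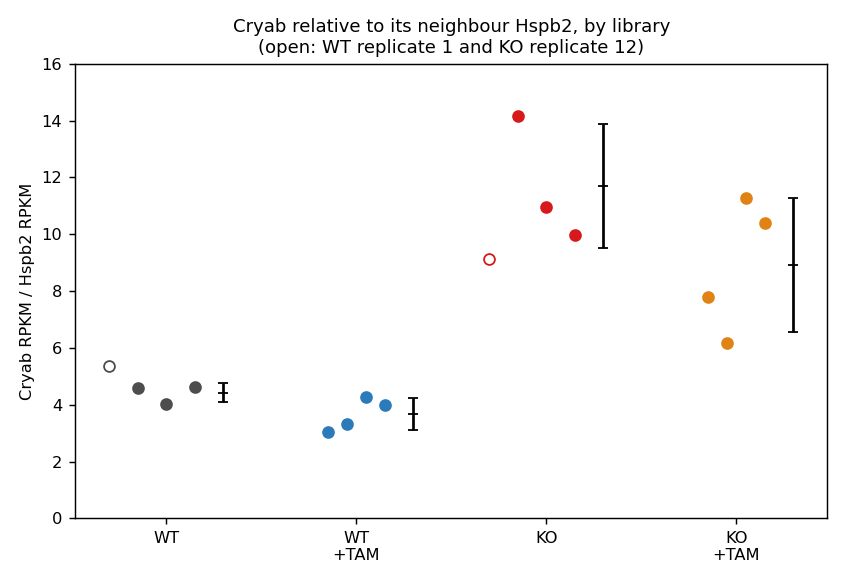
Ratio of *Cryab* RPKM to *Hspb2* RPKM in every library, by group, on a linear axis from 0. Filled points are the 14 libraries compared with their mean ± SD, open points WT replicate 1, as labelled (5.36), and KO replicate 12 (9.13), and the lowest KO + TAM point (6.16) lies above the highest filled WT point (4.62).

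*Hspb1*, the mouse gene of the Hsp27 type that guards actin filaments, had 129, 148 and 160 CPM in WT and 315, 381 and 338 in *Mtm1* KO. It had 124, 86.1, 175 and 165 CPM in WT + TAM and 361, 259, 519 and 327 in *Mtm1* KO + TAM. Genotypes did not overlap in either diet. The log2 fold change was 1.27 (standard error 0.14, adjusted p = 0.00131) and 1.42 with tamoxifen (standard error 0.25, adjusted p = 0.00360). Both stand on a gene that shares 50.1% of its exon stretches with other genes, a pseudogene foremost. The second call was lost without *Mtm1* KO + TAM replicate 15 (adjusted p = 0.0106), and the first with all 16 libraries (1.10, adjusted p = 0.103). *Hspb6* encodes Hsp20, a small heat shock protein of muscle that is phosphorylated in response to cyclic nucleotides. It had 859, 704 and 820 CPM in WT and 1440, 1297 and 1250 in *Mtm1* KO, against 570, 443, 874 and 821 in WT + TAM and 1434, 901, 1364 and 1144 in *Mtm1* KO + TAM. The lowest treated KO mouse stood just above the highest WT + TAM mouse. Its log2 fold change was 0.77 (standard error 0.14, adjusted p = 0.0113) and 0.84 with tamoxifen (standard error 0.22, adjusted p = 0.0253), both short of the threshold in the quasi-likelihood test. DESeq2 called both (adjusted p = 3.20e-06 and 0.00149), as did edgeR's exact test and limma. With all 16 libraries the first was 0.54 (edgeR, adjusted p = 0.227).

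*Hspb8* and *Bag3* encode the complex that sends clients to autophagy. *Hspb8* had 383, 640 and 439 CPM in WT and 841, 867 and 1121 in *Mtm1* KO. It had 288, 302, 363 and 362 CPM in WT + TAM and 665, 1173, 880 and 757 in *Mtm1* KO + TAM. All KO libraries were above all WT libraries, the closest being *Mtm1* KO + TAM replicate 13 (665) and WT replicate 3 (640). The log2 fold change of *Hspb8* was 0.97 (standard error 0.21, adjusted p = 0.0204) without tamoxifen and 1.40 with it (standard error 0.18, adjusted p = 7.05e-04). Without WT replicate 3 the first value was 1.22 and was called (adjusted p = 0.00778), and with all 16 libraries it was 1.10 (adjusted p = 0.0183). DESeq2 called it on the 14 libraries (adjusted p = 9.73e-05). *Bag3* had 131, 110 and 132 CPM in WT, 197, 208 and 199 in *Mtm1* KO, 132, 101, 157 and 154 in WT + TAM and 232, 178, 210 and 208 in *Mtm1* KO + TAM. The genotypes were apart, with WT + TAM replicate 7 and *Mtm1* KO + TAM replicate 14 the closest. The log2 fold change of *Bag3* was 0.72 (standard error 0.12, adjusted p = 0.00809), which passed, and 0.61 with tamoxifen (standard error 0.15, adjusted p = 0.0184), which did not, though DESeq2 called it (adjusted p = 0.00167). The call for *Bag3* was lost when any 1 of the 6 untreated libraries was left out (adjusted p of 0.0170 to 0.0313) and with all 16 libraries (0.60, adjusted p = 0.228). The difference between the genotype effects with and without tamoxifen was 0.45 for *Hspb8* (standard error 0.29) and -0.09 for *Bag3* (standard error 0.20) and was called for neither.

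The Hsp70 and Hsp40 members stayed closer to WT. *Hspa8* had 1096, 1347 and 1107 CPM in WT and 1192, 932 and 1285 in *Mtm1* KO, with 1068, 870, 1423 and 1405 in WT + TAM and 963, 826, 902 and 1587 in *Mtm1* KO + TAM. Its log2 fold change was -0.04 (95% interval -0.41 to 0.34) and -0.15 (-0.65 to 0.34) with tamoxifen. *Dnajb6* had 63.2, 71.7 and 63.9 CPM in WT and 67.2, 56.7 and 68.0 in *Mtm1* KO, with 74.6, 78.9, 59.3 and 62.6 in WT + TAM and 69.0, 82.5, 74.4 and 69.8 in *Mtm1* KO + TAM. Its log2 fold change was -0.03 (-0.32 to 0.26) and 0.11 (-0.16 to 0.37) with tamoxifen. Groups overlapped for both genes in both diets, and neither was called. Their sign depends on the scaling. When counts were scaled to library size alone, the median over all genes of the log2 fold change moved from 0.02 to 0.33 in *Mtm1* KO against WT and from -0.01 to 0.27 in *Mtm1* KO + TAM against WT + TAM. *Hspa8* then stood at 0.28 and 0.12 and *Dnajb6* at 0.29 and 0.39, not called. The fold changes of the rising members were larger under that scaling by about the same shift, such as 1.88 for *Cryab* and 2.98 for *Hspb7* in untreated mice.

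**Figure D3:**
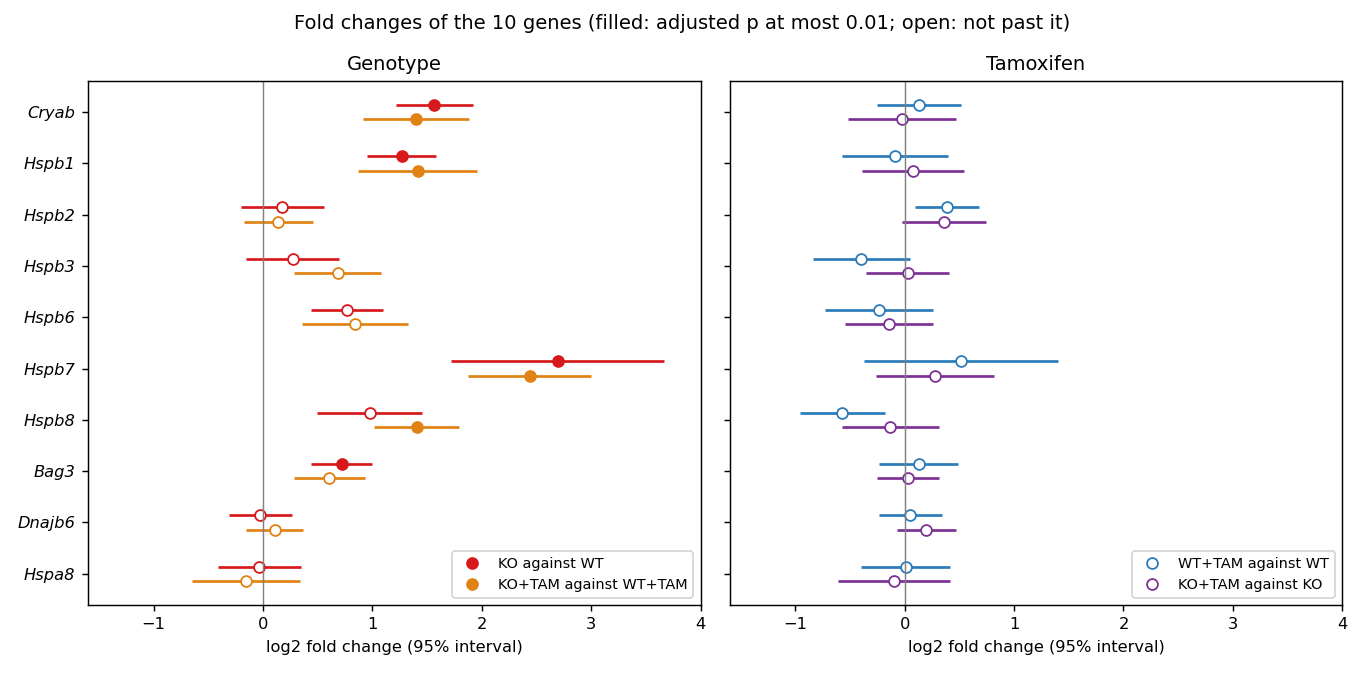
Log2 fold changes of the 10 genes with 95% intervals from edgeR's quasi-likelihood fit, for genotype (left, without and with tamoxifen) and for tamoxifen (right, in WT and in KO). Filled points passed an adjusted p of 0.01. Genotype values reach 2.69 for *Hspb7*, while all tamoxifen values lie between -0.57 and 0.51.

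The effect of tamoxifen on the set was asked for in each genotype. Of the 10 genes, 0 were called in *Mtm1* KO + TAM against *Mtm1* KO, where 0% of 15062 genes were called, and 0 in WT + TAM against WT, where 0.131% of 14544 were (edgeR's quasi-likelihood test). DESeq2 and edgeR's exact test also called 0 of the 10 in both. Of all genes, DESeq2 called 72 in the KO mice and 214 in the WT mice. In the KO mice 0 of the 10 had an unadjusted p under 0.05 (edgeR), where 1137 of 15062 genes had one of at most 0.05. The log2 fold changes of the 10 ran from -0.15 for *Hspb6* to 0.36 for *Hspb2* (95% interval -0.02 to 0.74). For *Hspb7* the value was 0.28 (-0.26 to 0.82), for *Cryab* -0.02 (-0.52 to 0.47), for *Hspb1* 0.08 (-0.39 to 0.54), for *Hspb8* -0.13 (-0.58 to 0.31) and for *Bag3* 0.03 (-0.25 to 0.31). The lower ends of these intervals for *Cryab*, *Hspb1*, *Hspb7* and *Bag3* lie nearer to 0 than the 1.57, 1.27, 2.69 and 0.72 by which the untreated KO stood above WT. *Dnajb6* was higher in every *Mtm1* KO + TAM than in every *Mtm1* KO library, with a log2 fold change of 0.20 (-0.07 to 0.47), while 3.98% of all genes lay wholly higher in that comparison. In the WT mice 2 of the 10 had an unadjusted p under 0.05 (edgeR), where 1549 of 14544 genes had one of at most 0.05. *Hspb8* was lower in every WT + TAM than in every WT library, with a log2 fold change of -0.57 (-0.95 to -0.18, adjusted p = 0.261), where 6.33% of all genes lay wholly lower. *Hspb2* was at 0.38 (0.09 to 0.68, adjusted p = 0.327). The difference between the tamoxifen effects in KO and in WT was called for 0 of the 10 genes (edgeR, 0% of 15556 genes). It ran from -0.23 for *Hspb7* to 0.45 for *Hspb8*. Of the 10, 0 had an unadjusted p under 0.05, where 664 of 15556 genes had one of at most 0.05. DESeq2 called 0 of the 10 and 12 of all genes. *Mtm1* KO + TAM against WT, which shares its libraries with the comparisons above, called *Cryab* (1.53), *Hspb1* (1.33), *Hspb7* (2.96) and *Bag3* (0.74), 4 of 10 against 7.70% of 14942 genes, and 3.56% as higher. Of these, *Hspb1* was not called without WT replicate 2, nor *Bag3* without any 1 of WT replicates 2, 3 and 4 and *Mtm1* KO + TAM replicate 15. With WT replicate 1 as labelled added, edgeR called 0 of the 10, the lowest adjusted p being 0.0424 for *Hspb7*, and 297 of all genes. Without that library, 7 of the 10 had an unadjusted p under 0.05 in edgeR. Of 14942 genes, 5075 had one of at most 0.05. DESeq2, also without that library, called 6 of the 10 and 2375 of all genes.

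The make-up of the small heat shock transcripts shifted with genotype. The summed RPKM of the 7 small heat shock genes was 1268 ± 83.0 (SD, n = 3) in WT and 1223 ± 268 (n = 4) in WT + TAM. It was 3740 ± 304 (n = 3) in *Mtm1* KO and 3651 ± 880 (n = 4) in *Mtm1* KO + TAM. RPKM are scaled to library size without TMM factors. Under such scaling the median log2 fold change over all genes was 0.33 without tamoxifen and 0.27 with it, and the rise of the sum includes that shift. *Cryab* made up 31.6 to 33.3% of the sum in WT and 37.6 to 42.4% in *Mtm1* KO, and in the treated groups 36.3 to 37.9% and 32.3 to 42.5%, which overlapped. *Hspb7* made up 1.54 to 6.38% in WT and 5.64 to 6.47% in WT + TAM, and 10.3 to 12.2% and 11.2 to 16.1% in *Mtm1* KO and *Mtm1* KO + TAM. *Hspb2* went the other way, with 6.85 to 11.9% in the WT mice of both diets and 2.98 to 5.43% in the KO mice. *Hspb3* did so too, with 2.13 to 3.14% and 1.19 to 1.95%. *Hspb6* held 19.0 to 29.5% and 14.4 to 19.7%, with a slight overlap, and *Hspb8* 11.5 to 22.8% and 9.85 to 23.1%, which overlapped. The share of *Hspb1* was much the same throughout, with means of 10.2% in WT, 9.82% in WT + TAM, 10.3% in *Mtm1* KO and 10.7% in *Mtm1* KO + TAM. Shares within a sum are tied to each other, so a larger share of *Hspb7* lowers the others.

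**Figure D4:**
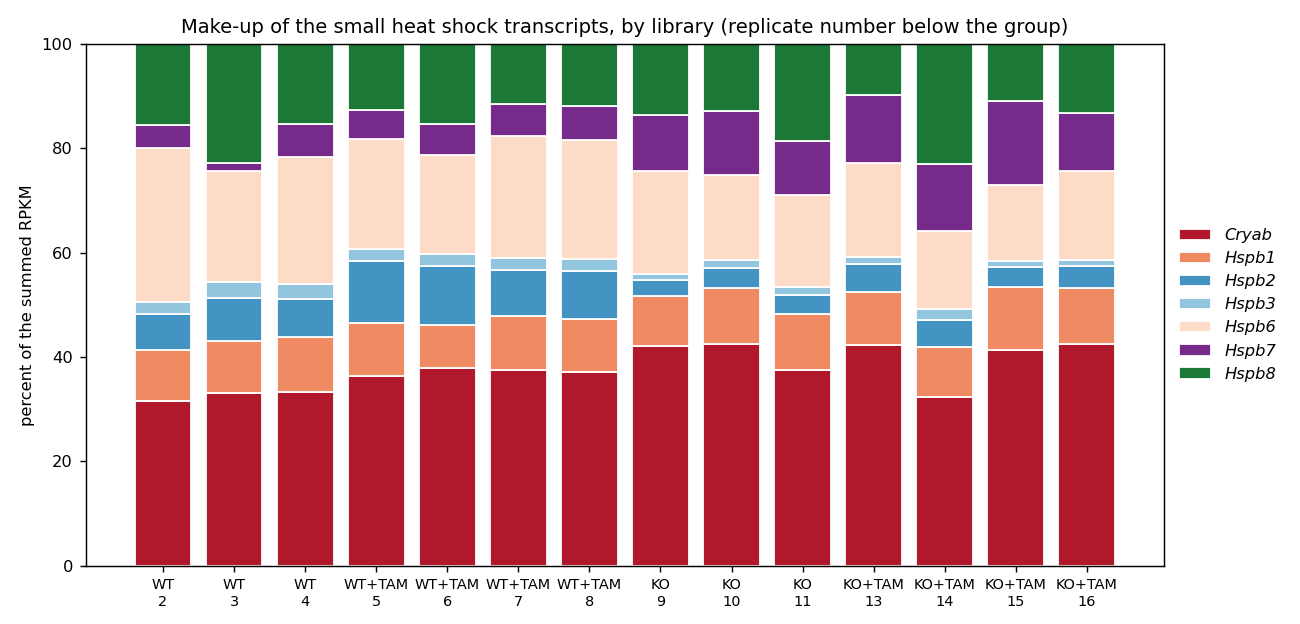
Share of each of the 7 small heat shock genes in their summed RPKM, in percent, as stacked bars for the 14 libraries, with group and replicate number under each bar. The *Hspb7* band is widest in the KO and KO + TAM bars (10.3 to 16.1%), and the *Hspb2* band is narrower there (2.98 to 5.43%) than in the WT bars (6.85 to 11.9%).

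The other genes of the pathway were taken from 8 lists with 60 genes, and 57 of them had enough counts to be tested. For *Mtm1* KO against WT 5 of 57 were called, all higher, and in *Mtm1* KO + TAM against WT + TAM 8 of 57, with 7 higher and 1 lower, beside 3.60% and 6.72% of all genes. These counts are from the quasi-likelihood test. The lists too were chosen with earlier results of these data known. DESeq2 called 8 higher and 4 lower in the first and 10 higher and 5 lower in the second. Library size as the sole scaling gave 8 and 16, all higher. Over all genes, DESeq2 called 1678 and 1995, and library size as the sole scaling gave 1163 and 1874. The lower calls of DESeq2 in both included *Synm*, a filament gene at -0.82 and -0.60, and *Synpo2*, *Dnajb5* and *Fkbp4*. The list of Z disc and intermediate filament genes held most of these calls. Whether their products are clients of the set was not tested. Of the 12 genes of that list tested, 3 were higher in KO than in WT without tamoxifen and 6 with it, with medians of 0.42 and 0.51. In these comparisons 4 and 5 of the 12 stood below 0. *Ankrd1*, a stretch-responsive gene of the sarcomere, had 9.36 to 10.3 CPM in WT and 105 to 233 in *Mtm1* KO, or 4.16 higher on the log2 scale (standard error 0.28, adjusted p = 2.14e-04). *Xirp1*, an actin binding protein of repair sites, had 107 to 110 CPM in WT and 226 to 279 in *Mtm1* KO (log2 fold change 1.21, standard error 0.13, adjusted p = 0.00121). *Des*, which encodes desmin, the filament that αB-crystallin protects, had 2604 to 2928 and 4421 to 5884 CPM (log2 fold change 0.98, standard error 0.17, adjusted p = 0.00832).

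Among treated mice, *Ankrd1*, *Fhl1*, *Xirp1*, *Actn2*, *Des* and *Vim* were higher in *Mtm1* KO + TAM than in WT + TAM. Their log2 fold changes were 4.02, 1.84, 1.70, 1.49, 0.90 and 0.59. *Fhl1*, which encodes a LIM protein mutated in reducing body myopathy, had 502 to 655 CPM in WT + TAM and 2047 to 2280 in *Mtm1* KO + TAM. In untreated mice *Fhl1* had 141 to 935 and 1376 to 2058 CPM and was not called, and WT replicate 3 held the lowest value of it, as of *Hspb7*. Of 7 partners of Bag3 in autophagy, *Flnc* alone rose without tamoxifen, from 388 to 478 CPM in WT to 700 to 803 in *Mtm1* KO (log2 fold change 0.81, standard error 0.14, adjusted p = 0.00862), and the quasi-likelihood test made 0 calls in the list with tamoxifen, where *Flnc* was at 0.83 (adjusted p = 0.0175). There 2 of the 7 had an unadjusted p under 0.05, and DESeq2 called both, *Flnc* as higher (adjusted p = 6.37e-04) and *Synpo2* as lower (adjusted p = 0.00492). The quasi-likelihood value of *Synpo2* was -0.57 in *Mtm1* KO against WT and -0.34 in *Mtm1* KO + TAM against WT + TAM. *Flnc* encodes filamin C, the client of the Bag3 complex. Among 15 heat shock response genes, *Hsp90aa1* was higher in *Mtm1* KO than in WT (0.88, standard error 0.14, adjusted p = 0.00562). *Fkbp4*, a co-chaperone of Hsp90, was lower in *Mtm1* KO + TAM than in WT + TAM (-0.58, standard error 0.12, adjusted p = 0.00763). It stood at -0.51 in *Mtm1* KO against WT (adjusted p = 0.0340). The median of the list was 0.12 without tamoxifen and 0.05 with it. *Hspa1a* and *Hspa1b*, the stress-induced Hsp70 genes, chosen here after their values were seen, stood at 1.24 and 1.70 without tamoxifen (adjusted p = 0.212 and 0.0984) and were not called. They are near-identical copies whose counts may be split between them. Of 10 genes of the Hsp70 and Hsp40 system, *Hspa2* was higher in *Mtm1* KO + TAM than in WT + TAM (0.88, adjusted p = 0.00533), at levels of 4.18 to 11.4 CPM. *Dnaja4* was called in *Mtm1* KO + TAM against WT (0.64, adjusted p = 0.00417), among 7 of 57 genes there. DESeq2 also called *Dnaja4* in *Mtm1* KO + TAM against WT + TAM (adjusted p = 6.21e-04). The 5 BAG genes other than *Bag3*, the 4 heat shock factor genes with their binding protein, the 3 myosin chaperones and *Hspb11* held 0 calls in both genotype comparisons and in *Mtm1* KO + TAM against WT (edgeR). Of them, 3 had an unadjusted p under 0.05 without tamoxifen and 5 with it (edgeR). Over all genes, 4431 of 14740 and 4700 of 14563 had one of at most 0.05. The exact test of edgeR called *Unc45b* as lower in *Mtm1* KO + TAM, both against WT + TAM and against WT. DESeq2 called *Hspb11* as higher and *Unc45b* as lower in *Mtm1* KO + TAM against WT + TAM. Their quasi-likelihood values there were 0.64 and -0.47. In *Mtm1* KO + TAM against WT, DESeq2 called *Unc45b* and *Smyd1*, both as lower. *Cryaa*, *Hspb9* and *Odf1* were too low to be tested.

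**Figure D5:**
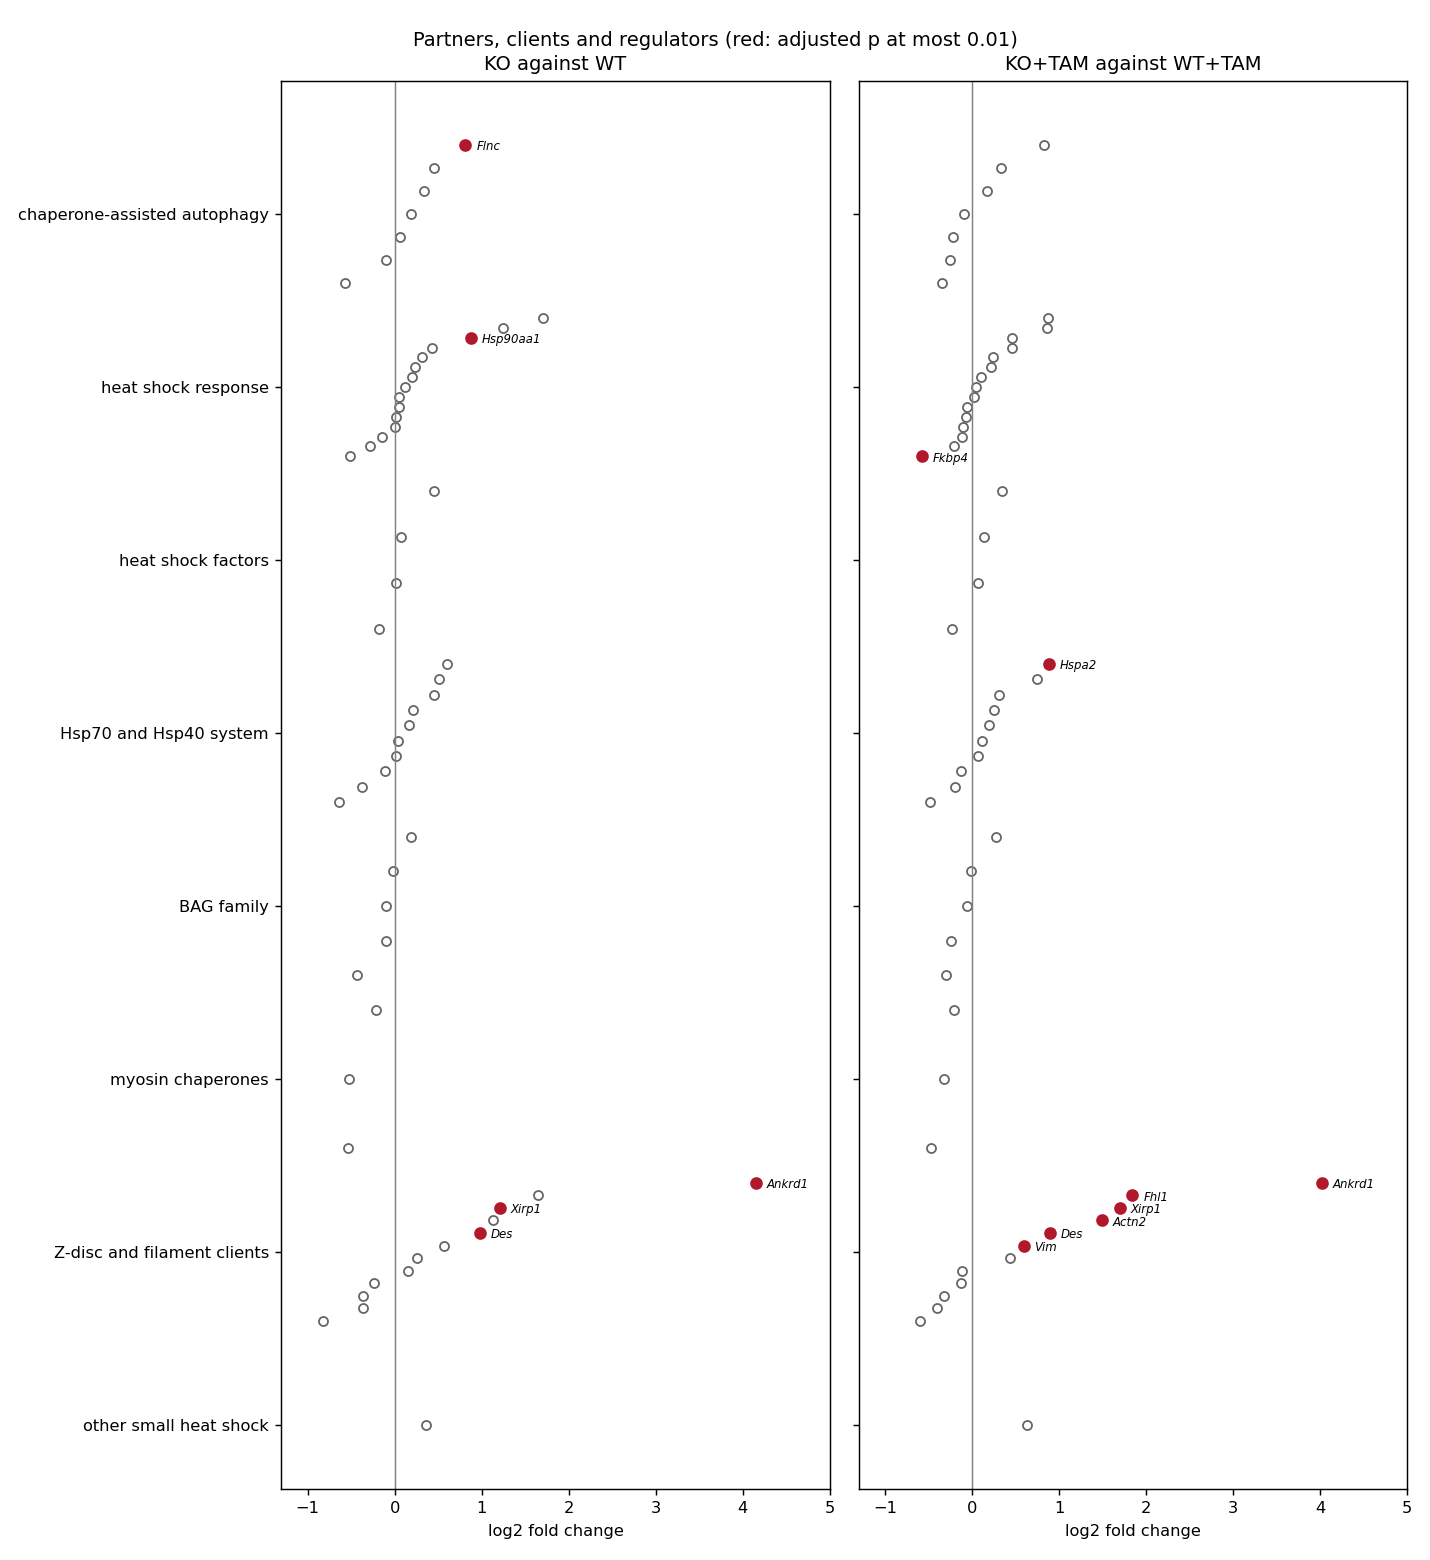
Log2 fold changes of 57 partners, clients and regulators of the set in *Mtm1* KO against WT (left) and *Mtm1* KO + TAM against WT + TAM (right), grouped by list and spread vertically by size. Red points with names passed an adjusted p of 0.01, 5 on the left and 8 on the right, and the Z disc and filament list holds 3 and 6 of them.

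Calls in these lists were few with 1 library less. In *Mtm1* KO against WT they numbered 2 or 3, with *Xirp1* and *Ankrd1* among them each time, *Des* only without KO replicate 9, *Hsp90aa1* only without KO replicate 11 and *Flnc* not at all. In *Mtm1* KO + TAM against WT + TAM they numbered 4 to 7, always with *Actn2*, *Fhl1*, *Xirp1* and *Ankrd1*. Between treated and untreated mice 0 of 57 were called in either genotype (edgeR), with 7 of 57 at an unadjusted p under 0.05 in KO and 4 in WT. Over all genes, 1137 of 15062 in KO and 1549 of 14544 in WT had one of at most 0.05. DESeq2 called *Tcap* and *Ankrd1* and edgeR's exact test *Ankrd1* in WT + TAM against WT, where *Ankrd1* was at 1.25 (adjusted p = 0.0561). With all 16 libraries, *Ankrd1* was the 1 gene of the 57 called in *Mtm1* KO against WT, where 211 of all genes were called.

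Cell type markers were set beside these results. All 5 skeletal muscle markers were abundant, with a summed level of 136318 to 189675 CPM in WT and 147904 to 157088 in WT + TAM, against 76823 to 91892 in *Mtm1* KO and 70294 to 104216 in *Mtm1* KO + TAM, so all 5 were lower in every KO mouse. All 5 markers of fast 2B fibers were lower in every KO mouse as well. Their sum was 90637 to 140828 CPM in WT and 46554 to 62367 in *Mtm1* KO. *Myh4* is in both lists, so these falls are not separate. All 6 markers of immature fibers were higher in every KO mouse, from 44.2 to 48.7 CPM in sum in WT and 42.8 to 73.6 in WT + TAM to 236 to 311 in *Mtm1* KO and 183 to 313 in *Mtm1* KO + TAM. Of the 6 slow fiber markers 1 was higher in every KO mouse, with sums of 51.6 to 532 CPM in WT, 52.9 to 353 in WT + TAM, 358 to 1307 in *Mtm1* KO and 240 to 966 in *Mtm1* KO + TAM. Their part in the changes of the small heat shock genes was not tested. The summed markers of leukocytes were 37.3 to 47.3 CPM in WT and 20.1 to 45.2 in WT + TAM. Their sum was 53.0 to 82.3 CPM in *Mtm1* KO and 52.3 to 92.7 in *Mtm1* KO + TAM, so it was higher in every KO mouse. Taken singly, 0 of the 4 markers were apart in all mice. None of the lists of fibroblasts, endothelium, smooth muscle, fat, Schwann cells or red blood cells had a marker that separated all KO from all WT mice, and no marker of any list was at 0 counts in a library.

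The genes whose pattern over the 14 libraries was most like that of 3 members were listed as a description. The libraries fall into clusters by genotype, which alone gives high values, so the Pearson r of log2 CPM is followed by the r after the mean of each group is taken out. For *Hspb7* these were *Ankrd2* (0.96 and 0.92), *Myom3* (0.96 and 0.79), *Nfkb2* (0.96 and 0.72), *Adprhl1* (0.95 and 0.68) and *Fhl1* (0.95 and 0.80). For *Cryab* they were *Apitd1*, *4933415F23Rik*, *Plekho1*, *Sprr1a* and *Col8a1*, with r of 0.95 to 0.97 and, within groups, 0.54 to 0.82. For *Bag3* they were *Timp1*, *Tuba1b*, *Adprhl1*, *Rhoa* and *Crlf2*, with 0.96 to 0.97 and, within groups, 0.83 to 0.94. These 5 per gene were drawn from 15546 genes, and the libraries also share depth and composition.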

How the data were processed

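RNA from quadriceps of 16 mice was sequenced on libraries from total RNA. According to their methods and processing notes, the authors used STAR 2.5.0c on GRCm38 and HTSeq to make the deposited raw counts, and the deposited RPKM scale these counts to library size and gene length. The processing notes also name bcl2fastq 2.17 and Cufflinks 2.2.1. The sources used here do not give annotation, counting mode or strand. Groups come from the labels and n counts mice. The study compared 14 libraries, and of the 120 possible pairs 0 were identical in their counts. The WT + TAM libraries 7 and 8 differed least within a group, at 3.23 times the spread of read sampling (median over genes with at least 20 counts in the pair), against 7.48 to 40.9 for all other pairs of a group, and were kept as 2 mice.

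Counts were compared pairwise with edgeR 4.0.16 in R 4.3.3 (TMM, filterByExpr with a minimum count of 10 and a total of 15, quasi-likelihood test, Benjamini-Hochberg adjustment over all genes tested, called at an adjusted p of at most 0.01). CPM are scaled with TMM factors over 16 libraries. The difference of tamoxifen effects was a contrast in 1 fit of all groups. The ratio of *Cryab* to *Hspb2* was tested by exact permutation (scipy 1.17.1, Python 3.11.15). The results were recomputed with DESeq2 1.42.0, with edgeR's exact test, with limma 3.58.1 on log2(RPKM + 0.1) and log2(RPKM + 1), at a threshold of 0.05 and with other scalings and filters, 1 fit of the 4 groups, all 16 libraries, or without 1 library at a time. All 10 members are named, with the called genes of the 8 lists and the 5 genes most like 3 members. The members and lists were chosen with earlier results of these data known. The scripts were tested on simulated data. Counting error is small at this depth, and the number of mice limits precision.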

Additional observations from a re-analysis of the deposited data

Results flagged for a closer look

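In a group of 4 libraries, a value was marked when its gap to the nearest other library took more of the range of the group than Dixon's 95% critical value allows. The 10 genes in 4 groups gave 40 such tests, with WT replicate 1, as labelled, and KO replicate 12 taken in to fill their groups. Chance marks about 1 in 20, and 5 were marked. In WT, the library labelled replicate 1 stood far above the other 3 for *Cryab* (1462 CPM, the others from 473) and *Hspb1* (349 CPM, the others from 129). *Hspa8* was marked for WT replicate 3 (1347 CPM, the lowest being 1059). *Bag3* was marked for the library labelled KO replicate 12 (308 CPM, the lowest being 197), and *Hspb2* for WT + TAM replicate 6 (96.7 CPM, the highest being 121). Of these, *Hspb2* in WT + TAM and *Hspa8* in WT replicate 3 concern libraries used in the comparisons.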

How the results depend on the processing

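Each result was recomputed under the alternatives, and no paired analysis was possible because the labels share no replicate numbers between groups. Of 60 log2 fold changes of the members over 6 comparisons, 12 were called, and 0 of these changed sign in any alternative. In *Mtm1* KO against WT, 4 members were called, 6 (*Hspb6* and *Hspb8* added) with DESeq2, the exact test, limma with either pseudocount, a threshold of 0.05, library size only or no filter, 5 in 1 fit of 4 groups, 0 with 16 libraries and 2 to 4 with 1 library left out (2 without WT replicate 2 or KO replicate 9, 10 or 11, with *Cryab* and *Hspb1* kept each time). Pathway calls there were 5, and 12 with DESeq2, 8 with limma on RPKM plus 0.1, 13 at 0.05, 8 with library size only, 8 without a filter, 1 with 16 libraries and 2 to 3 with 1 library left out. In *Mtm1* KO + TAM against WT + TAM, 4 members were called, and 7 with DESeq2, the exact test, limma with either pseudocount, a threshold of 0.05 or library size only, and 3 to 4 with 1 library left out. Pathway calls were 8, and 15, 13, 14, 14, 16 and 16 in the same order, and 4 to 7 with 1 library left out. In *Mtm1* KO + TAM against WT, 4 members were called, 7 at 0.05 or with library size only, 0 with 16 libraries and 2 to 4 with 1 library left out (2 without WT replicate 2). Its 7 pathway calls became 15 with DESeq2, 11 with the exact test or limma on RPKM plus 0.1, 16 at 0.05, 18 with library size only, 13 without a filter, 1 with 16 libraries and 2 to 7 with 1 library left out. In WT + TAM against WT, pathway calls were 0, and 2 with DESeq2, 1 with the exact test, 1 without a filter and 0 to 1 with 1 library left out. Member calls stayed at 0 in both tamoxifen comparisons and in their difference, and pathway calls at 0 in *Mtm1* KO + TAM against *Mtm1* KO and in the difference, in every alternative and with each library left out (0 to 0). Calls over all genes tested moved as well. In *Mtm1* KO against WT, 531 became 1678 with DESeq2, 1885 at 0.05, 1163 with library size only and 211 with 16 libraries. In *Mtm1* KO + TAM against WT + TAM, 979 became 1995 with DESeq2, 2476 at 0.05 and 1874 with library size only. In *Mtm1* KO + TAM against WT, 1150 became 2375, 2993 and 1871, and 297 with 16 libraries. The cause of these changes was not tested, beyond the added libraries and the looser threshold themselves. The *Cryab* to *Hspb2* difference of 1.31 was the same from raw counts, 1.24 with 16 libraries and 1.22 to 1.42 with 1 library left out.

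Signs that changed belonged to uncalled values, all uncalled in the alternative too, the farthest from 0 being *Hspb7* in WT + TAM against WT (0.51). In *Mtm1* KO against WT, *Dnajb6* turned to 0.28, 0.26 and 0.29 and *Hspa8* to 0.27, 0.27 and 0.28 with limma on RPKM plus 0.1, plus 1 and library size only, and *Hspa8* to 0.067 with 16 libraries. In *Mtm1* KO + TAM against WT + TAM, *Hspa8* turned to 0.10, 0.10 and 0.12 under the same 3. In *Mtm1* KO + TAM against *Mtm1* KO, *Hspb1* turned to -0.011 and -0.011 with limma and -0.19 with 16 libraries. *Hspb3* turned to -0.023 and -0.023 with limma, -0.011 with library size only and -0.17 with 16 libraries, and *Bag3* to -0.022, -0.022, -0.019 and -0.15. In WT + TAM against WT, *Hspa8* turned to -0.015 and -0.014 with limma and -0.0012 with upper quartile scaling, and with 16 libraries *Cryab* turned to -0.38, *Hspb7* to -0.24 and *Bag3* to -0.15. With 1 library left out, *Dnajb6* ranged from -0.075 to 0.063 and *Hspa8* from -0.13 to 0.10 in *Mtm1* KO against WT. For *Mtm1* KO + TAM against *Mtm1* KO they were -0.17 to 0.14 for *Cryab*, -0.14 to 0.21 for *Hspb1*, -0.093 to 0.15 for *Hspb3*, -0.31 to 0.018 for *Hspb8*, -0.022 to 0.098 for *Bag3* and -0.35 to 0.010 for *Hspa8*. For WT + TAM against WT they were -0.22 to 0.090 for *Hspb1*, -0.013 to 0.12 for *Dnajb6* and -0.086 to 0.14 for *Hspa8*.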
